A study of Mus musculus with 21 samples.

Results

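The CD45 contrast is the difference in gene expression between CD45+ and CD45- cells among splenic Ter119+CD71+ cells. Here it was compared between tumor-bearing mice and mice with anemia, gene by gene, as (tumor CD45+ minus tumor CD45-) minus (anemia CD45+ minus anemia CD45-). The comparison rests on 12 of the 21 RNA-seq libraries of the series, chosen by their labels: 3 each of tumor CD45+, tumor CD45-, anemia CD45+ and anemia CD45- cells, all sorted as Ter119+CD71+ from spleens of C57BL/6 mice. The remaining libraries were 3 neonatal CD45+, 3 neonatal CD45- and 3 of CD11b+Gr1+ cells of tumor-bearing mice (myeloid-derived suppressor cells, MDSC). The neonatal libraries also entered the choice of genes tested and the shared estimate of the spread. The labels give no tumor line, no way in which anemia was induced, no age and no sex. Whether libraries of 1 group are separate animals or sorts is not stated either, so p-values measure only how far these libraries spread, and that spread may be technical.

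Ter119 is a surface antigen of erythroid cells, and CD71, the transferrin receptor encoded by Tfrc, is carried at high density by dividing erythroid precursors. CD45, the leukocyte phosphatase encoded by Ptprc, is lost as erythroid cells mature, so the contrast sets cells that still carry a leukocyte antigen against cells that have lost it. Neutrophils make their granule proteins in sequence: primary granules with myeloperoxidase and serine proteases in promyelocytes, then secondary granules with lactoferrin and cathelicidin, then tertiary granules with gelatinase. A positive interaction means that the CD45+ minus CD45- difference was larger, or less negative, in tumor-bearing mice than in mice with anemia, and a negative one the reverse.

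A level is 2 raised to the deposited log2 value. The labels and the table do not name the scale behind the log, and a gene is said to be at 0 where its cell in the table is blank. In statements on which libraries lie highest or lowest, all others means the rest of these 12 libraries. All log2 differences are on the log2(level + 1) scale, which understates the change of low genes. Where CD45- levels lie below 1, the size of an interaction therefore depends on the added 1. Levels summed to between 227961 and 349261 per library, and the read depth is unknown. The extraction text of the labels names retinas while the tissue label says spleen; the photoreceptor markers Sag and Gnat1 together reached at most 1.94 in any of the 12 libraries. Ptprc was at 129.8, 177 and 386 in tumor CD45+ libraries 1, 2 and 3, against 1.23, 1.35 and 2.96 in tumor CD45- libraries, and at 322, 372 and 477 in anemia CD45+ libraries, against 3.3, 5.5 and 2.47 in anemia CD45- libraries. The groups did not overlap within either status, as the sort would have them, and the interaction of Ptprc was -0.15 ± 0.55 (SE, adjusted p = 0.949) in limma's moderated test. Over 8 erythroid markers, all present in the table, levels summed to 12591, 14223 and 10087 in tumor CD45+ libraries, 131500.0, 81477 and 47226 in tumor CD45- libraries, 28915, 18797 and 2496 in anemia CD45+ libraries and 103721, 85147 and 23470.1 in anemia CD45- libraries, lowest in anemia CD45+ replicate 3. Tumor CD45+ replicate 3 stood apart from the others of its group: across genes its log2 levels correlated with replicates 1 and 2 at r = 0.867 and 0.870, against 0.951 between replicates 1 and 2. In each of the other 3 groups replicate 3 was likewise the least like the others, at 0.894 and 0.899 against 0.957 in anemia CD45+ cells, 0.911 and 0.922 against 0.974 in anemia CD45- cells, and 0.935 and 0.950 against 0.970 in tumor CD45- cells. Over the red pulp macrophage markers, the levels of tumor CD45+ libraries summed to 127, 94 and 759, against 91.4, 87.6 and 89.1 in anemia CD45+ libraries, so replicate 3 was apart there as well. Results are therefore given with and without tumor CD45+ replicate 3.

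Of 11195 genes tested, 246 (2.2%) had an interaction with an adjusted p below 0.05, 202 higher (1.8%) and 44 lower (0.393%), and 1703 had an unadjusted p below 0.05. The median interaction of all tested genes was 0.03. By comparison, the CD45 contrast itself passed for 6839 genes (61.1%) in tumor-bearing mice and for 6577 (58.7%) in mice with anemia, so the genes with an interaction are few beside those that separated CD45+ from CD45- cells in each status. Without tumor CD45+ replicate 3 the interaction passed for 1184 of 11113 genes (10.7%), 599 higher (5.39%) and 585 lower (5.26%), and all 242 of the 246 genes that were still tested passed again. Without anemia CD45+ replicate 3 it passed for 432 genes. It passed for 99 and 89 genes without tumor CD45+ replicate 1 or 2, for 97 and 84 without anemia CD45+ replicate 1 or 2, for 143 and 120 without tumor CD45- replicate 1 or 2, and for 111 without anemia CD45- replicate 2. For the 3 libraries not named here the count without the library stayed within 1.5 times of 246.

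**Figure D1:**
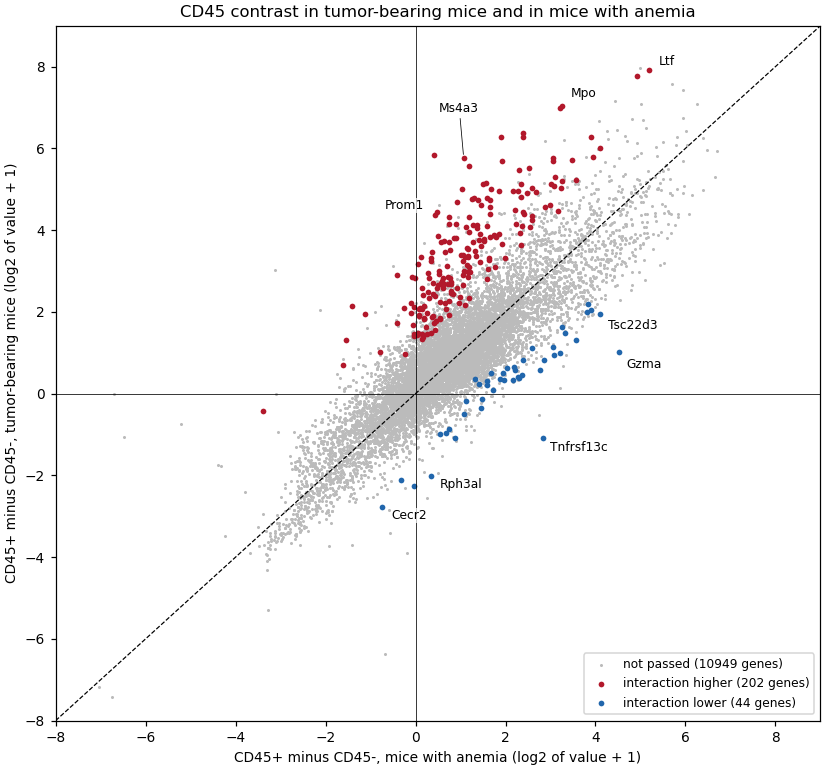
Each point is 1 of the 11195 genes tested; the vertical axis gives the CD45+ minus CD45- difference in tumor-bearing mice and the horizontal axis that in mice with anemia, both as log2 of level + 1, and the dashed line marks equal contrasts. The 202 genes with a higher interaction lie above the line, most of them at positive contrasts in both, and the 44 with a lower interaction lie below it.

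On the log2(level + 1) scale the 246 interactions lay mostly in a difference between the CD45+ groups. Among the 202 higher genes the tumor minus anemia difference was larger in size in CD45+ than in CD45- cells for 199, and larger in CD45- cells for Atp6v1g1, Hsbp1 and Tnrc18. The median over these genes of the group means was 15.6 in tumor CD45+ and 0.219 in tumor CD45- libraries, and it was 1.78 in anemia CD45+ and 0.123 in anemia CD45- libraries. At such low CD45- levels the scale leaves little room for a difference between the CD45- groups, so the 199 was largely set by it. In levels these groups can differ, as for Mpo with CD45- means of 4.55 in tumor and 0.0981 in anemia. The same count over all tested genes was not made. The CD45 contrast passed as higher in CD45+ cells for 50.2% of all tested genes in tumor-bearing mice and for 47.4% in mice with anemia. Of the 202 genes it passed so in both statuses for 119, in tumor-bearing mice alone for 77, and with opposite signs for Abhd5, Atp6v1g1, Tmx4 and the second entry of Zfand4. For Ncapd2 and Ssna1 it passed as lower in CD45+ cells of mice with anemia and did not pass in tumor-bearing mice; over all tested genes 11.3% passed as lower in mice with anemia, whatever their result in tumor-bearing mice. Over the 44 lower genes the same medians were 2.10, 0.785, 7.23 and 0.173. Their tumor minus anemia difference was larger in size in CD45+ cells for 28 and in CD45- cells for 16. These classes and the interaction come from the same libraries, and they describe where each interaction lies without adding a test of it.

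Primary granule genes had the highest median interaction of the 39 gene lists examined, 3.79, against 0.03 for all genes. Of 10 genes in the list 9 were tested, and 6 of them passed higher, Ms4a3, Ctsg, Elane, Prtn3, Mpo and Prss57, where 1.8% of all genes did. None passed lower. Ms4a3, a membrane protein of granulocyte and monocyte progenitors, was at 196, 154 and 31.2 in tumor CD45+ libraries, 1.64, 1.13 and 0.0597 in tumor CD45- libraries, 1.24, 0.642 and 1.56 in anemia CD45+ libraries and 0, 0 and 0.0149 in anemia CD45- libraries. All 3 tumor CD45+ libraries lay above every other of the 12 libraries, and the tumor CD45- and anemia CD45+ libraries overlapped. Its CD45 contrast was 5.78 ± 0.49 (SE) in tumor-bearing mice and 1.07 ± 0.49 in mice with anemia, an interaction of 4.71 ± 0.70 (SE, adjusted p = 0.00213). Ctsg, which encodes the serine protease cathepsin G, was at 621, 289 and 54.4 in tumor CD45+ libraries, 4.95, 2.48 and 0.0414 in tumor CD45- libraries, 3.36, 3.27 and 1.75 in anemia CD45+ libraries and 0, 0 and 0 in anemia CD45- libraries. Tumor CD45+ libraries were again above the rest without overlap, and replicate 3 was the lowest of them. The interaction of Ctsg was 4.38 ± 0.94 (SE, adjusted p = 0.0191).

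Elane encodes neutrophil elastase and Prtn3 proteinase 3, serine proteases whose genes lie side by side. Elane was at 435, 329 and 81.3 in tumor CD45+ libraries, 4.06, 2.5 and 0.185 in tumor CD45- libraries, 6.65, 5.34 and 2.79 in anemia CD45+ libraries and 0.173, 0.0926 and 0 in anemia CD45- libraries. Prtn3 was at 455, 426 and 79.5 in tumor CD45+ libraries, 4.69, 4.67 and 0.0428 in tumor CD45- libraries, 6.37, 5.26 and 3.59 in anemia CD45+ libraries and 0.18, 0.217 and 0.0448 in anemia CD45- libraries. In both genes anemia CD45+ libraries lay above anemia CD45- libraries without overlap, so their CD45 contrast was positive in each status, 6.37 ± 0.64 in tumor-bearing mice and 2.39 ± 0.64 in mice with anemia for Elane. The interaction was 3.98 ± 0.90 (SE, adjusted p = 0.0272) for Elane and 3.90 ± 0.94 (SE, adjusted p = 0.0363) for Prtn3. Mpo, which encodes the myeloperoxidase that makes hypochlorous acid, was at 965, 719.9 and 229 in tumor CD45+ libraries, 8.59, 4.79 and 0.26 in tumor CD45- libraries, 12.9, 12 and 5.28 in anemia CD45+ libraries and 0.152, 0.0622 and 0.0797 in anemia CD45- libraries. Tumor CD45+ libraries were above all others here too, and tumor CD45- replicates 1 and 2 lay within or near the range of the anemia CD45+ libraries. Its interaction was 3.79 ± 0.90 (SE, adjusted p = 0.0342). Prss57, a further serine protease of these granules, reached 7.51, 5.99 and 3.38 in tumor CD45+ libraries and at most 0.132 in the other 3 groups, an interaction of 2.45 ± 0.31 (SE, adjusted p = 0.000449). Of the members that did not pass, Cst7 had an interaction of 0.93 ± 0.50 (SE, adjusted p = 0.4), Ctsc of 0.76 ± 0.68 (SE, adjusted p = 0.684) and Srgn of 1.72 ± 0.56 (SE, adjusted p = 0.124).

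Tumor CD45+ replicate 3 was the lowest of its group for all 6 of these genes. Without it the interaction was 5.52 (adjusted p = 1.76e-06) for Ms4a3, 5.36 (adjusted p = 0.000161) for Ctsg, 4.71 (adjusted p = 0.00146) for Elane, 4.72 (adjusted p = 0.00148) for Prtn3, 4.41 (adjusted p = 0.00372) for Mpo and 2.72 (adjusted p = 4.3e-06) for Prss57, and 7 of 9 tested members passed (5.39% of all genes). With another single library left out, 2 of 9 passed without replicate 1 or 2 of tumor CD45+ and without replicate 2 of either anemia group, and 3 passed without tumor CD45- replicate 3, replicate 1 of anemia CD45+ or replicate 1 or 3 of anemia CD45-. The calls of Ms4a3 and Prss57 held with each of the 12 libraries left out in turn. That of Ctsg was lost without replicate 1 or 2 of tumor CD45+ and without replicate 2 of either anemia group. Elane kept its call only without replicate 3 of either CD45+ group or replicate 1 of tumor CD45-, Prtn3 only without replicate 3 of tumor CD45+ or replicate 1 or 2 of tumor CD45-, and Mpo only without replicate 3 of tumor CD45+ or replicate 1 of tumor CD45-. With a pseudocount of 0.1 in place of 1 a single member of the 9 passed, and with median-ratio scaling 2 did. The list's median was 2.52 and 3.37 in these alternatives. A fit to the 12 libraries only, without the neonatal ones, ended the calls of Ctsg, Elane, Prtn3 and Mpo.

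**Figure D2:**
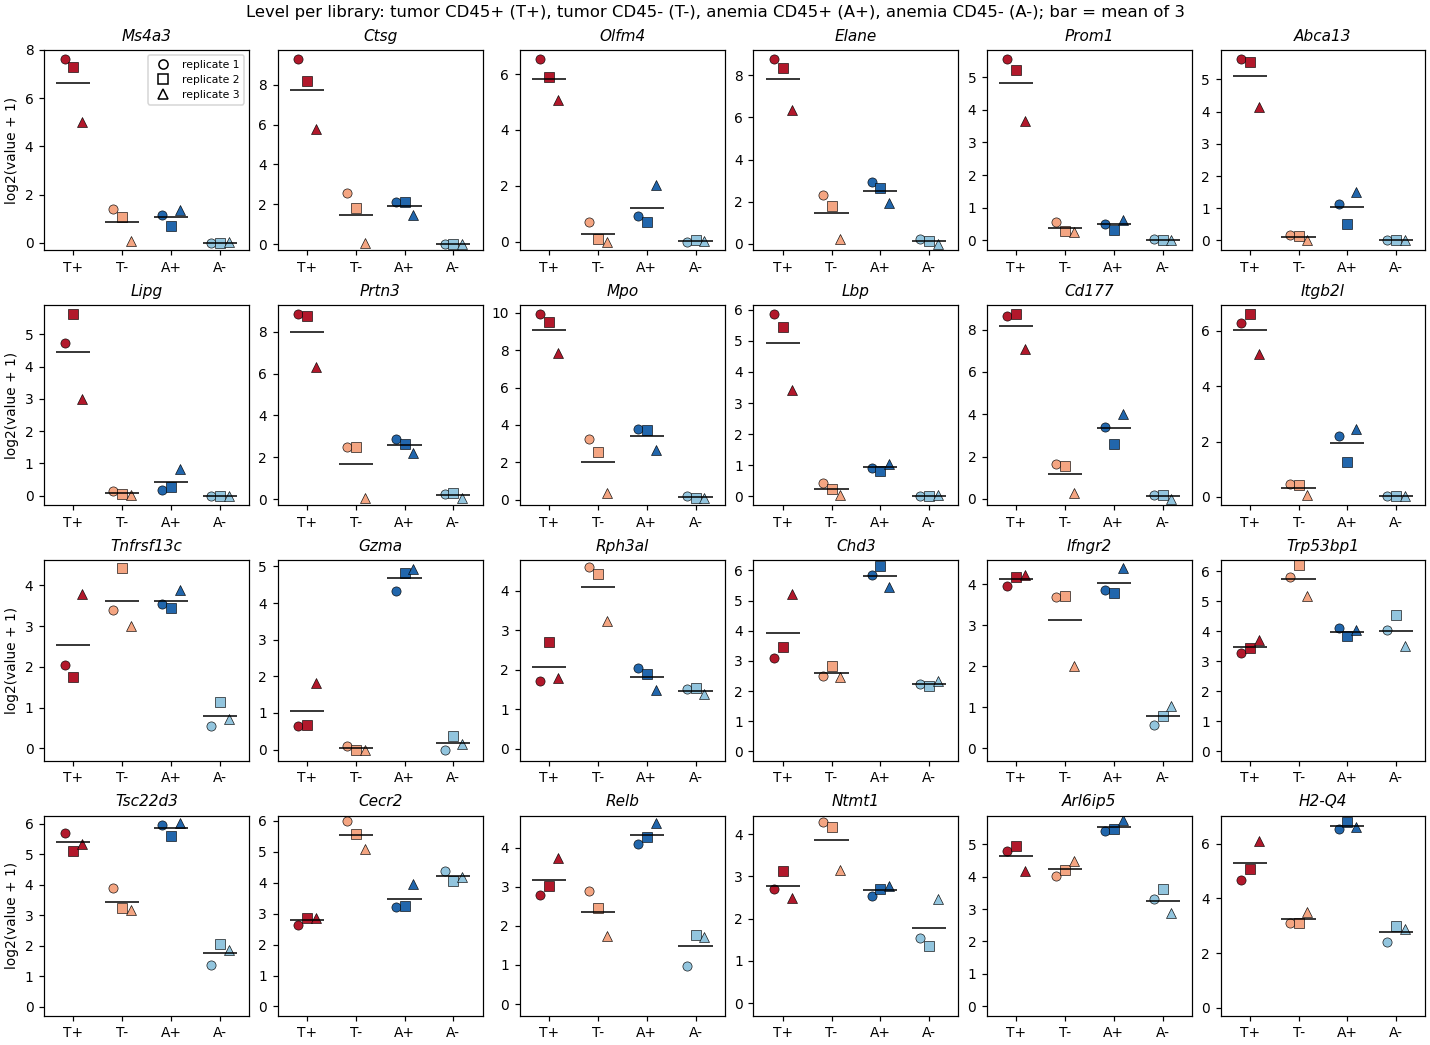
Levels of the 12 leading higher and the 12 leading lower genes by size of the interaction, as log2 of level + 1, in tumor CD45+ (T+), tumor CD45- (T-), anemia CD45+ (A+) and anemia CD45- (A-) libraries; markers show replicates 1, 2 and 3 and bars the mean of 3. In the upper 12 panels the 3 tumor CD45+ libraries lie above all others, with replicate 3 the lowest in each gene.

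Promoters of the first 4 higher genes in granulocyte lists by size of the interaction, and of the leading lower gene, are printed to show the starts of genes that moved together, with motifs of the myeloid factors C/EBP and PU.1, the B cell factor EBF and the erythroid GATA factors. Windows run from 250 bases before to 50 bases after the RefSeq start (GRCm38.p6, 5′ to 3′ on the gene's strand), and capitals mark a match to a C/EBP motif (TTNNGCAA), a PU.1 motif (GAGGAAGT), an EBF motif or a GATA motif (AGATAA) on either strand, with no overlap between matches.
Ms4a3, chr19:11640802-11641101, minus strand: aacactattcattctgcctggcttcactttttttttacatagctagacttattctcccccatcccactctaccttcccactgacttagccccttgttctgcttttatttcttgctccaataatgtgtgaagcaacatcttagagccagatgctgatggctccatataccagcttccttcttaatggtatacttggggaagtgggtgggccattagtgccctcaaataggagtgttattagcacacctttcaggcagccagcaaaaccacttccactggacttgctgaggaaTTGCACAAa
Ctsg, chr14:56102525-56102824, minus strand: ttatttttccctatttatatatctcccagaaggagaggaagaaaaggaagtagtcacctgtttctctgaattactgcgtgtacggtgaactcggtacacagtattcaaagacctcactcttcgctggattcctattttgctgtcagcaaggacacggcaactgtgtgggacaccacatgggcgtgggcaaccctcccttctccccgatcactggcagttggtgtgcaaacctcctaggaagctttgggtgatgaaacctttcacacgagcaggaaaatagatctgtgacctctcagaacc
Olfm4, chr14:80000052-80000351, plus strand: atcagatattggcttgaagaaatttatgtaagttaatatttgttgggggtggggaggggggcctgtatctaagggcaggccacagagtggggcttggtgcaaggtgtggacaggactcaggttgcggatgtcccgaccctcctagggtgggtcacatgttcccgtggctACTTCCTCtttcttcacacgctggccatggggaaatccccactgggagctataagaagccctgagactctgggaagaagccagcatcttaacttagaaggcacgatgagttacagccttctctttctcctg
Elane, chr10:79886062-79886361, plus strand: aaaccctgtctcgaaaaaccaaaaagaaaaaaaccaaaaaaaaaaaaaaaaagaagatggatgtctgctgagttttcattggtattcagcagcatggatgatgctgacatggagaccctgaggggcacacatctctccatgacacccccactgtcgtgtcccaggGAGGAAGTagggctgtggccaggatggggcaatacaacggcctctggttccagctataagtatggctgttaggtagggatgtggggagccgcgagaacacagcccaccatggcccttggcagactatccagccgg
Tnfrsf13c, chr15:82224331-82224630, minus strand: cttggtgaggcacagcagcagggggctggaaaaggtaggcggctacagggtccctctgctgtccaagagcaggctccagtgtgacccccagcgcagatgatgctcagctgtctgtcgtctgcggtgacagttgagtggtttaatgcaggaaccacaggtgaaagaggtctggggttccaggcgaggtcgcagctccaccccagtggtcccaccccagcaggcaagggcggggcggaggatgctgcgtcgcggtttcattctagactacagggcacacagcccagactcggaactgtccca
The Ms4a3 window held a C/EBP match at bases 292 to 299, after the start, and the Olfm4 and Elane windows each held a PU.1 match, at bases 170 to 177 and 166 to 173. The Ctsg and Tnfrsf13c windows held none of the 4 letter strings. A C/EBP match was found in 28 of the 156 higher genes with a promoter in the RefSeq table (17.9%), against 10.8% of all 32851 promoters and 10.3% of the 8701 tested genes with one. A PU.1 match was found in 14 of 156 (8.97%), against 3.2% of all promoters and 4.16% of tested genes. An EBF match was found in 2 of 156 (1.28%), against 0.904% and 1.17%, and a GATA match in 13 (8.33%), against 11.2% and 8.14%. Of the 37 lower genes with a promoter, 4 held C/EBP, 1 PU.1, 2 GATA and none EBF letters. A match is a description of the sequence and not a bound site.

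Secondary and tertiary granule genes came next with a median of 2.70. Of 30 members, all of them tested, 15 passed higher and none lower, beside 1.8% and 0.393% of all genes. Olfm4, a glycoprotein of secondary granules, was at 92, 58.1 and 32.4 in tumor CD45+ libraries, 0.635, 0.0633 and 0 in tumor CD45- libraries, 0.907, 0.631 and 3.05 in anemia CD45+ libraries and 0, 0.0509 and 0.0216 in anemia CD45- libraries. The 3 tumor CD45+ libraries lay above all others, and anemia CD45+ libraries above anemia CD45- libraries. The interaction of Olfm4 was 4.38 ± 0.52 (SE, adjusted p = 0.000415). Cd177, a surface glycoprotein of neutrophils, was at 400.3, 420.1 and 134 in tumor CD45+ libraries, 2.15, 1.93 and 0.226 in tumor CD45- libraries, 9.55, 5.05 and 15.1 in anemia CD45+ libraries and 0.135, 0.148 and 0 in anemia CD45- libraries. Here anemia CD45+ libraries lay above both CD45- groups without overlap, and tumor CD45+ libraries lay above them in turn. Its contrast was 6.98 ± 0.44 in tumor-bearing mice and 3.21 ± 0.44 in mice with anemia, an interaction of 3.78 ± 0.62 (SE, adjusted p = 0.00425). Itgb2l, which encodes a beta integrin subunit similar to Itgb2, was at 76.7, 95.6 and 35 in tumor CD45+ libraries, 0.386, 0.362 and 0.043 in tumor CD45- libraries, 3.54, 1.4 and 4.47 in anemia CD45+ libraries and 0.028, 0.0304 and 0.0124 in anemia CD45- libraries. It had the same order of groups as Cd177 and an interaction of 3.76 ± 0.48 (SE, adjusted p = 0.000449). Fcnb, a ficolin of neutrophil granules, had an interaction of 3.64 ± 0.36 (SE, adjusted p = 0.00013), and Orm1, an acute phase protein that neutrophils also store, of 3.14 ± 0.34 (SE, adjusted p = 0.000309).

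Ltf and Camp encode lactoferrin and cathelicidin, the best known proteins of secondary granules; they are named here after their values were seen. Ltf was at 574, 846 and 641 in tumor CD45+ libraries, 2.32, 2.66 and 0.789 in tumor CD45- libraries, 60.1, 31.1 and 62.1 in anemia CD45+ libraries and 0.735, 0.307 and 0.103 in anemia CD45- libraries. The tumor CD45+ libraries were the highest and the anemia CD45+ libraries came next, with no overlap between any of the CD45+ and CD45- groups. Its contrast was 7.93 ± 0.32 in tumor-bearing mice and 5.20 ± 0.32 in mice with anemia, and its interaction was 2.73 ± 0.46 (SE, adjusted p = 0.00487); that of Camp was 2.86 ± 0.64 (SE, adjusted p = 0.0242). Lcn2 and Ngp, lipocalin and cathelicidin-like proteins of secondary granules, had interactions of 1.89 ± 0.81 (SE, adjusted p = 0.273) and 2.07 ± 0.95 (SE, adjusted p = 0.309) and did not pass. Tumor CD45- libraries held 14, 10.2 and 1.03 of Lcn2, against 0.426, 0.0176 and 0.281 in anemia CD45- libraries. Leaving out tumor CD45+ replicate 3 gave 22 of 30, with a median of 3.13, and without anemia CD45+ replicate 3, 23 did (3.02% of all genes passed higher there). With tumor CD45+ replicate 2 or anemia CD45+ replicate 2 left out the count was 8. The calls of Olfm4, Cd177, Itgb2l, Fcnb and Orm1 held with each of the 12 libraries left out. With a pseudocount of 0.1 the count was 4 of 30, and with median-ratio scaling, quantile normalization or haemoglobin genes left out it was 10, 14 and 13.

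Of 27 calgranulins, receptors and surface antigens of neutrophils 3 passed (1.8% of all genes), Ly6c2, Clec5a and Mrgpra2a, all higher, with a list median of 1.57. Ly6c2, a surface antigen shared by monocytes and neutrophil precursors, had an interaction of 1.85 ± 0.35 (SE, adjusted p = 0.0108), the lectin receptor Clec5a 2.51 ± 0.64 (SE, adjusted p = 0.0481) and the orphan receptor Mrgpra2a 2.06 ± 0.41 (SE, adjusted p = 0.0146). S100a8 and S100a9 encode the subunits of calprotectin, the most abundant cytosolic protein of neutrophils. S100a9 was at 12033, 12469 and 4756 in tumor CD45+ libraries, 184, 187 and 16 in tumor CD45- libraries, 287, 167 and 1446 in anemia CD45+ libraries and 6.29, 6.02 and 4.88 in anemia CD45- libraries. Tumor CD45+ libraries were above anemia CD45+ libraries without overlap, and the same held between tumor CD45- and anemia CD45- libraries. The tumor minus anemia difference was 4.44 ± 0.79 (SE, adjusted p = 0.00143) in CD45+ cells and 3.65 ± 0.79 (SE, adjusted p = 0.0743) in CD45- cells, so the interaction was 0.79 ± 1.11 (SE, adjusted p = 0.825), and that of S100a8 0.83 ± 1.01 (SE, adjusted p = 0.788). Itgam, the CD11b chain, was at 90.5, 130.3 and 67.6 in tumor CD45+ libraries, at or below 0.139 in tumor CD45- libraries, at 12, 10.4 and 48 in anemia CD45+ libraries and at or below 0.0414 in anemia CD45- libraries. Its groups did not overlap between tumor and anemia CD45+, and its interaction of 2.18 ± 0.59 (SE, adjusted p = 0.0629) did not pass with all libraries but was 2.40 (adjusted p = 0.0213) without tumor CD45+ replicate 3 and 2.85 (adjusted p = 0.00111) without anemia CD45+ replicate 3. Ly6g, the antigen of the Gr1 antibody on neutrophils, had an interaction of 1.47 ± 0.86 (SE, adjusted p = 0.456) and spread over 1.05, 10.9 and 21.7 in tumor CD45+ libraries, which overlapped with anemia CD45+ libraries at 0.793, 1.18 and 5.76. The interaction of Ly6g was 0.74 (adjusted p = 0.646) without tumor CD45+ replicate 3 and passed, at 2.47 (adjusted p = 0.0485), without tumor CD45+ replicate 1. In this list 10 of 27 members passed without tumor CD45+ replicate 3, where 5.39% of all genes passed higher, and 18 of 27 without anemia CD45+ replicate 3, where 3.02% did. Anemia CD45+ replicate 3 was the library with the highest S100a8 and S100a9 levels of its group. Leaving out anemia CD45+ replicate 1 or 2 left 1 of 27, Ly6c2. The call of Clec5a was kept only without replicate 3 of either CD45+ group.

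Of 10 myeloid transcription factors tested, Spi1, which encodes PU.1, passed higher (1.8% of all genes). It was at 65.7, 110.5 and 42.8 in tumor CD45+ libraries, 1.21, 0.615 and 1.14 in tumor CD45- libraries, 12.3, 18.6 and 26.4 in anemia CD45+ libraries and 1.42, 1.9 and 0.915 in anemia CD45- libraries. Tumor CD45+ libraries lay above anemia CD45+ libraries, and the CD45- groups overlapped; the interaction was 2.11 ± 0.47 (SE, adjusted p = 0.0244) and was lost without replicate 1 or 2 of tumor CD45+, replicate 2 of tumor CD45-, or replicate 1 or 2 of either anemia group. None of 8 NADPH oxidase genes passed, with a median of 1.09. Without tumor CD45+ replicate 3, 2 passed (5.39% of all genes), and 3 without anemia CD45+ replicate 3 (3.02% of all genes). Cybb, the catalytic subunit of the oxidase, had 1.38 ± 0.43 (SE, adjusted p = 0.112). None of 18 monocyte and macrophage genes passed either, with a median of 0.02, which was -0.49 without tumor CD45+ replicate 3 and 0.44, with 2 passing higher, without anemia CD45+ replicate 3.

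Over the 7 neutrophil markers S100a8, S100a9, Ltf, Camp, Ngp, Mpo and Elane, levels summed to 26143, 27042 and 10275 in tumor CD45+ libraries, 356, 294 and 30.9 in tumor CD45- libraries, 752, 421 and 2547 in anemia CD45+ libraries and 13.6, 10.9 and 8.5 in anemia CD45- libraries. All 7 were in the table and none was at 0 throughout. As a percentage of the summed levels of a library, primary granule genes made up 1.18%, 0.853% and 0.327% in tumor CD45+ libraries, 0.00914%, 0.00833% and 0.00539% in tumor CD45- libraries, 0.0681%, 0.0513% and 0.0817% in anemia CD45+ libraries and 0.00263%, 0.00347% and 0.00662% in anemia CD45- libraries. These marker sums were higher in tumor than in anemia CD45+ libraries, as were the neutrophil granule lists, with which they share genes. The monocyte and macrophage list did not follow them, with a median interaction of 0.02. The part of neutrophil lineage cells in the sorted fractions was not tested. In bulk libraries such as these, fewer cells of a type and less RNA per cell cannot be told apart.

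**Figure D3:**
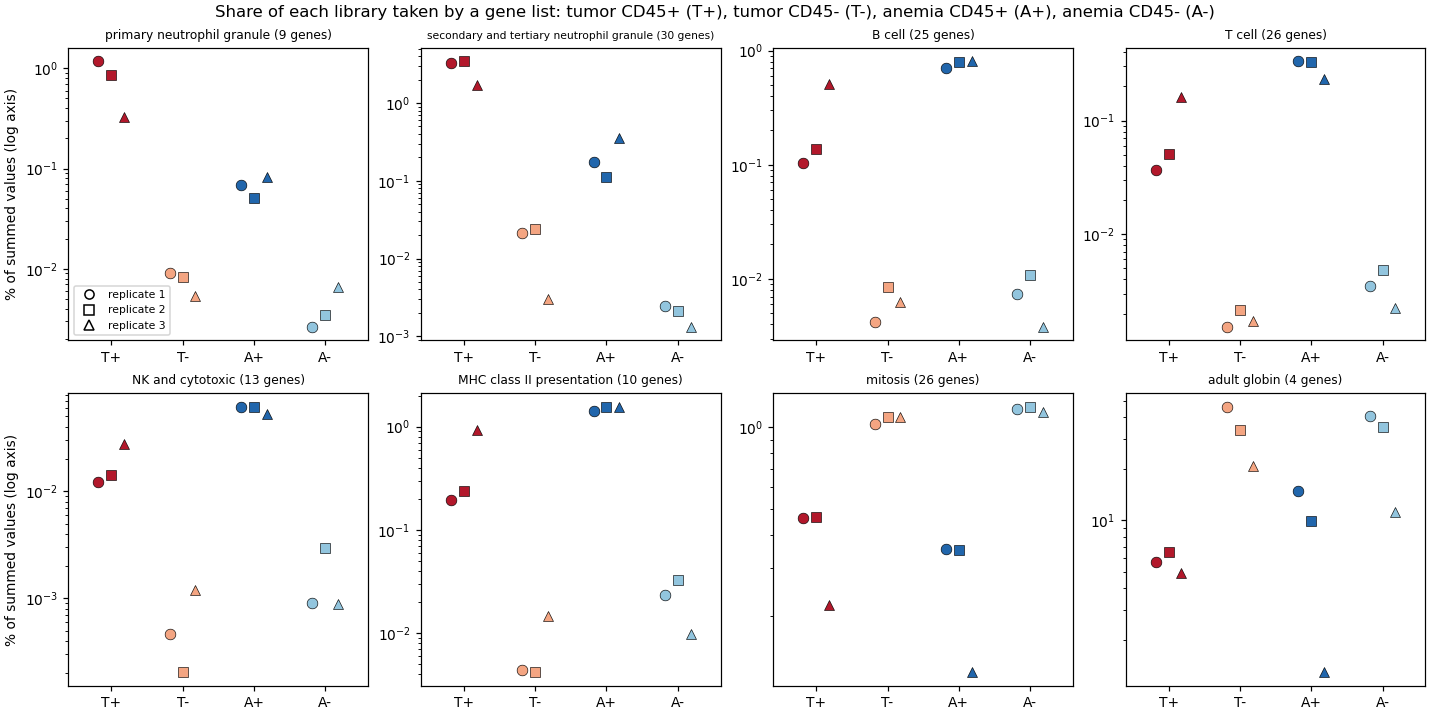
Share of each library's summed levels taken by 8 gene lists, on a log axis in percent, for tumor CD45+ (T+), tumor CD45- (T-), anemia CD45+ (A+) and anemia CD45- (A-) libraries; markers show replicates 1, 2 and 3. Primary granule genes took 0.327% to 1.18% in tumor CD45+ libraries, above the 0.0513% to 0.0817% in anemia CD45+ libraries, while B and T cell genes lay lower in tumor CD45+ than in anemia CD45+ libraries without overlap.

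The other leading genes with a higher interaction are in none of the lists. Prom1, the membrane glycoprotein CD133 of stem and progenitor cells, was at 46, 35.8 and 11.6 in tumor CD45+ libraries, 0.481, 0.208 and 0.198 in tumor CD45- libraries, 0.423, 0.256 and 0.547 in anemia CD45+ libraries and 0.0194, 0 and 0.00861 in anemia CD45- libraries. Abca13, a lipid transporter of the ABC family, was at 48.7, 45.2 and 16.6 in tumor CD45+ libraries, 0.132, 0.0947 and 0.00528 in tumor CD45- libraries, 1.17, 0.436 and 1.83 in anemia CD45+ libraries and 0.0127, 0.0106 and 0.00221 in anemia CD45- libraries. In both genes each tumor CD45+ library lay above every other of the 12 libraries, none of which exceeded 1.83. Their interactions were 3.96 ± 0.49 (SE, adjusted p = 0.000443) and 3.96 ± 0.46 (SE, adjusted p = 0.000415). Lipg, which encodes endothelial lipase, was at 25.9, 48.4 and 6.96 in tumor CD45+ libraries, at or below 0.11 in tumor CD45- libraries, at 0.14, 0.204 and 0.754 in anemia CD45+ libraries and at 0 in all 3 anemia CD45- libraries. Tumor CD45+ libraries were the highest here too, and the interaction was 3.95 ± 0.58 (SE, adjusted p = 0.00213). Lbp, which hands bacterial lipopolysaccharide to CD14, was at 57.2, 43.2 and 9.77 in tumor CD45+ libraries and at 0.886, 0.735 and 1.07 in anemia CD45+ libraries, with CD45- libraries at or below 0.333, and its interaction was 3.78 ± 0.63 (SE, adjusted p = 0.00487). Without tumor CD45+ replicate 3 the interaction was 4.54 (adjusted p = 5.46e-07) for Prom1, 4.44 (adjusted p = 8.43e-07) for Abca13 and 4.53 (adjusted p = 4.3e-06) for Lbp, while Lipg then fell below the expression filter. The calls of Prom1, Abca13 and Lbp held with each of the 12 libraries left out. Lipg passed the expression filter only through the 3 tumor CD45+ libraries, and leaving out any of these removed it from testing. Its call held in the other 9 fits, but these could not challenge it, so nothing is read from them. Over all 202 higher genes, tumor CD45+ replicate 3 was the lowest of its group in 180, the highest in 10 and in between in 12. Its position over all tested genes was not counted, so nothing particular to the called genes is read from this.

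Of 23 glycolysis and hypoxia genes 3 passed higher (1.8% of all genes), with a median of 1.15. Hk3, the hexokinase of myeloid cells, was at 41.4, 54.6 and 25.7 in tumor CD45+ libraries, 0.466, 0.435 and 0.328 in tumor CD45- libraries, 4.65, 4.46 and 13.6 in anemia CD45+ libraries and 0.543, 0.638 and 0.386 in anemia CD45- libraries. Gpi1, glucose phosphate isomerase, was at 433, 355 and 110.2 in tumor CD45+ libraries, 7.18, 7.87 and 7.47 in tumor CD45- libraries, 57.4, 64.2 and 64.1 in anemia CD45+ libraries and 5.77, 7.55 and 15.3 in anemia CD45- libraries. Tumor CD45+ libraries lay above anemia CD45+ libraries in both, and the CD45- groups overlapped. Their interactions were 2.49 ± 0.52 (SE, adjusted p = 0.0185) and 2.24 ± 0.57 (SE, adjusted p = 0.0489), and that of Tpi1, triose phosphate isomerase, was 2.92 ± 0.71 (SE, adjusted p = 0.0392). When tumor CD45+ replicate 3 was left out, 10 of the 23 passed (5.39% of all genes), with a median of 1.62. Gpi1 was called in 2 of 12 fits with a library left out, without tumor CD45+ replicate 3 and without anemia CD45- replicate 1, Tpi1 in 3, without the third replicate of either CD45+ group or anemia CD45- replicate 1, and Hk3 in 7, its call lost without replicate 1 or 2 of either CD45+ group and without anemia CD45- replicate 2. With a pseudocount of 0.1 none passed.

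Among the 11 early progenitor genes tested Cd34, Erg and Muc13 passed higher (1.8% of all genes), with a median of 0.48. Erg, a transcription factor of haematopoietic stem cells and of endothelium, was at 5.5, 8.82 and 4.51 in tumor CD45+ libraries, 0.0854, 0.205 and 0 in tumor CD45- libraries, 0.61, 0.419 and 0.455 in anemia CD45+ libraries and 0, 0 and 0.0215 in anemia CD45- libraries. Tumor CD45+ libraries lay above the rest of the 12, which stayed below 1. The interaction of Erg was 2.12 ± 0.36 (SE, adjusted p = 0.00505), that of Cd34, an adhesion glycoprotein of progenitors, 1.40 ± 0.30 (SE, adjusted p = 0.0196), and that of Muc13, a membrane mucin, 1.32 ± 0.31 (SE, adjusted p = 0.0311). The call of Erg held with each of the 12 libraries left out. That of Cd34 was lost without replicate 1 or 2 of tumor CD45+ and without replicate 2 of either anemia group, and that of Muc13 was kept only without replicate 3 of either CD45+ group, replicate 2 of tumor CD45- or replicate 1 of anemia CD45-. With quantile normalization or a pseudocount of 0.1 none of the 3 passed. Of 23 immunosuppressive mediators tested only Lgals3 passed, which encodes galectin-3, a lectin of macrophages and other myeloid cells. Lgals3 was at 163, 182 and 89.5 in tumor CD45+ libraries, 2.21, 1.63 and 2.33 in tumor CD45- libraries, 22.5, 25.4 and 93.4 in anemia CD45+ libraries and 4.32, 5.84 and 7.59 in anemia CD45- libraries. Tumor and anemia CD45+ libraries overlapped, through anemia CD45+ replicate 3, while tumor CD45- libraries lay below anemia CD45- libraries without overlap. Its interaction was 3.01 ± 0.58 (SE, adjusted p = 0.012). Arg1, arginase 1 of suppressive myeloid cells, was at or below 0.141 in all 12 libraries and its interaction was -0.04 ± 0.67 (SE, adjusted p = 0.991). In each of these further lists 1 gene passed, beside the 1.8% of all genes that passed higher, and nothing is read from such counts. Of 32 interferon response genes Ifitm6 passed at 3.36 ± 0.52 (SE, adjusted p = 0.00254), and of 16 innate pattern and Fc receptors Clec12a, an inhibitory lectin of myeloid cells, at 2.20 ± 0.48 (SE, adjusted p = 0.0208). Without replicate 3 of either CD45+ group 4 of the 23 immunosuppressive mediators passed higher. Of all genes 5.39% did so without that of tumor CD45+ and 3.02% without that of anemia CD45+. The calls of Lgals3 and Ifitm6 held with each of the 12 libraries left out, and that of Clec12a was kept only without replicate 3 of any of the 4 groups or replicate 1 of anemia CD45-.

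**Figure D4:**
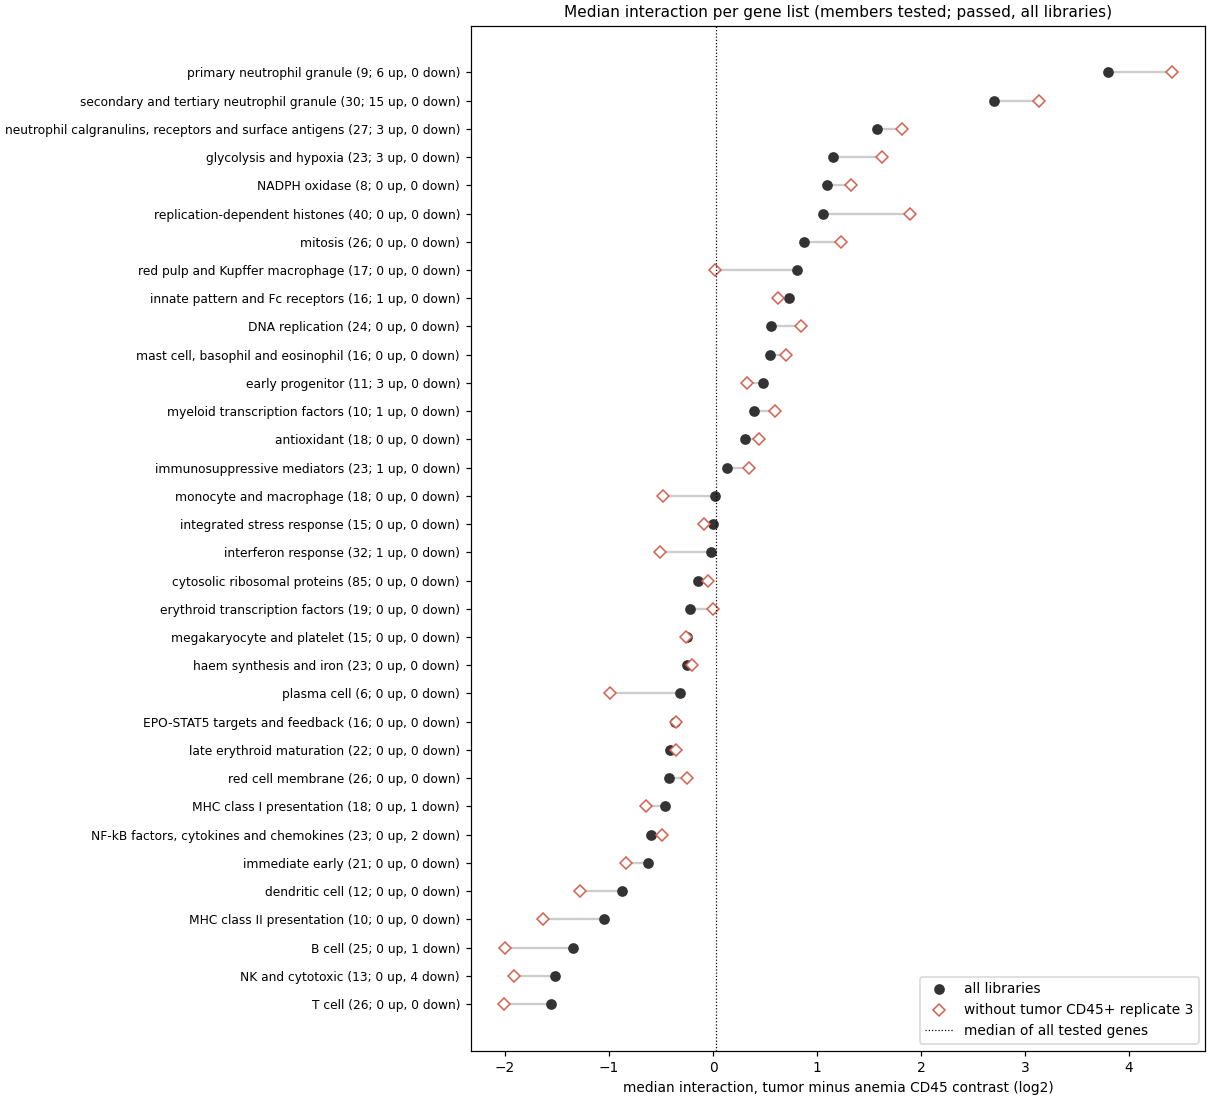
Median interaction (log2) of gene lists with at least 6 tested members, leaving out the hepatocyte list and the endothelial and stromal list. Filled circles show the fit with all libraries and open diamonds that without tumor CD45+ replicate 3. Labels give the members tested and those that passed higher and lower, and the dotted line is the median of all tested genes. Neutrophil granule lists lie at the top, at 3.79 and 2.70, and T cell, NK, B cell and MHC class II lists at the bottom, between -1.56 and -1.05.

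Lymphocyte genes lay at the other end, most without passing singly. All 25 B cell, all 26 T cell, all 13 NK and cytotoxic and all 10 MHC class II genes tested had a negative interaction, with medians of -1.34, -1.56, -1.52 and -1.05, of which 1, 0, 4 and 0 passed lower (0.393% of all genes). With a pseudocount of 0.1, 4 of the 25 B cell genes and 1 of the 26 T cell genes had a positive interaction, and with quantile normalization 1 B cell gene. Without tumor CD45+ replicate 3, 17 of 25, 21 of 26, 9 of 13 and 6 of 10 passed lower (5.26% of all genes), with medians between -2.01 and -1.63. Without anemia CD45+ replicate 3, 7 of the 26 T cell genes passed lower (0.862% of all genes). Of the 13 NK and cytotoxic genes 2 passed without each of the other libraries except anemia CD45+ replicates 1 and 3. As a percentage of the summed levels of a library, B cell genes made up 0.103%, 0.138% and 0.514% in tumor CD45+ libraries, 0.0042%, 0.00848% and 0.00623% in tumor CD45- libraries, 0.698%, 0.791% and 0.807% in anemia CD45+ libraries and 0.00736%, 0.0109% and 0.00378% in anemia CD45- libraries. T cell genes made up 0.0366%, 0.0511% and 0.162% in tumor CD45+ libraries, 0.00152%, 0.00216% and 0.00173% in tumor CD45- libraries, 0.334%, 0.327% and 0.231% in anemia CD45+ libraries and 0.00353%, 0.00483% and 0.00225% in anemia CD45- libraries. In both lists the tumor and anemia CD45+ libraries did not overlap, and tumor CD45+ replicate 3 was the closest of its group to anemia CD45+ libraries. Cd79a, a signalling chain of the B cell receptor, was at 32.7, 44.6 and 172 in tumor CD45+ and 248, 278 and 271 in anemia CD45+ libraries, with an interaction of -1.34 ± 0.70 (SE, adjusted p = 0.385). Cd3e, a chain of the T cell receptor complex, was at 2.12, 3.06 and 15.4 in tumor CD45+ and 34.8, 34.5 and 21.8 in anemia CD45+ libraries, with an interaction of -2.26 ± 0.63 (SE, adjusted p = 0.0676). NK cell markers summed to 2.62, 2.89 and 14.8 in tumor CD45+ and 23.5, 23.6 and 22.2 in anemia CD45+ libraries. Cd79a, Cd3e and the NK marker sums were lower in tumor than in anemia CD45+ libraries, as the lymphocyte lists were. In CD45- cells the B cell markers summed to 1.72, 1.3 and 2.52 in tumor and 7.1, 8.26 and 1.57 in anemia libraries. Tnfrsf13c, described below, was in contrast higher in tumor than in anemia CD45- libraries. The part of lymphocytes in the CD45+ fractions was not tested.

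Gzma, granzyme A of cytotoxic lymphocytes, had the second largest negative interaction of the named genes. It was at 0.573, 0.588 and 2.54 in tumor CD45+ libraries, 0.0788, 0 and 0 in tumor CD45- libraries, 19.2, 27.5 and 29.3 in anemia CD45+ libraries and 0, 0.288 and 0.12 in anemia CD45- libraries. Anemia CD45+ libraries lay above all others without overlap, and tumor CD45+ libraries above both CD45- groups. The interaction was -3.51 ± 0.56 (SE, adjusted p = 0.00354), and -3.90 (adjusted p = 0.000211) without tumor CD45+ replicate 3. The transcription factor Eomes of NK and memory T cells was at 0.166, 0.346 and 1.13 in tumor CD45+ and 3.24, 5 and 3.16 in anemia CD45+ libraries, with CD45- libraries at or below 0.062 and an interaction of -1.62 ± 0.30 (SE, adjusted p = 0.0101). The NK lectin receptor Klre1 had -1.92 ± 0.44 (SE, adjusted p = 0.029), and the pore-forming protein Prf1 -1.57 ± 0.36 (SE, adjusted p = 0.0291). Klra4, Klra8, Klra9, Klra7 and Klra1, neighbouring NK lectin receptor genes on chromosome 6 named after their values were seen, passed lower as well, with interactions of -1.65, -1.83, -1.27, -1.92 and -0.97. They are close paralogs that can share reads, so their levels are uncertain. The calls of Gzma and Eomes held with each of the 12 libraries left out, while that of Klre1 was kept only without replicate 3 of tumor CD45+ or replicate 1 or 3 of anemia CD45+, and that of Prf1 only without replicate 3 of either CD45+ group. With a pseudocount of 0.1 none of the NK and cytotoxic genes passed.

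Tnfrsf13c, the receptor for the B cell survival factor BAFF, had the largest negative interaction among the genes named and was the B cell gene that passed. It was at 3.11, 2.37 and 12.9 in tumor CD45+ libraries, 9.46, 20.4 and 7.03 in tumor CD45- libraries, 10.7, 9.81 and 13.8 in anemia CD45+ libraries and 0.456, 1.19 and 0.65 in anemia CD45- libraries. In mice with anemia the CD45+ libraries lay above the CD45- libraries, whereas in tumor-bearing mice the CD45+ and CD45- libraries overlapped. Tumor CD45- libraries also lay above anemia CD45- libraries without overlap, a difference of 2.81 ± 0.46 (SE, adjusted p = 0.0165). The contrast was -1.07 ± 0.46 in tumor-bearing mice and 2.83 ± 0.46 in mice with anemia, and the interaction -3.90 ± 0.65 (SE, adjusted p = 0.00487), or -4.54 (adjusted p = 4.78e-05) without tumor CD45+ replicate 3. Cd79a was at 0.648, 0.558 and 0.685 in tumor CD45- libraries, against 2.13, 2.92 and 0.527 in anemia CD45- libraries, and these groups overlapped. The call of Tnfrsf13c held with each of the 12 libraries left out.

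Among other lower genes, the mean level of Rph3al, Trp53bp1, Cecr2 and Ntmt1 was highest in tumor CD45- cells. That of Ifngr2 was highest in tumor CD45+ cells and lowest in anemia CD45- cells. Rph3al, an effector of Rab GTPases in exocytosis, was at 2.28, 5.49 and 2.47 in tumor CD45+ libraries, 23.4, 20.5 and 8.37 in tumor CD45- libraries, 3.09, 2.74 and 1.81 in anemia CD45+ libraries and 1.84, 1.89 and 1.6 in anemia CD45- libraries. Trp53bp1, a mediator of double-strand break repair, was at 8.6, 9.91 and 12.1 in tumor CD45+ libraries, 55.6, 73.2 and 34.7 in tumor CD45- libraries, 16.2, 13.4 and 15.3 in anemia CD45+ libraries and 15.4, 22.3 and 10.3 in anemia CD45- libraries. Cecr2, a bromodomain protein of chromatin remodelling complexes, was at 5.15, 6.18 and 6.32 in tumor CD45+ libraries, 63, 46.3 and 32.8 in tumor CD45- libraries, 8.26, 8.48 and 14.6 in anemia CD45+ libraries and 20, 15.6 and 17.3 in anemia CD45- libraries. In all 3 genes tumor CD45- libraries lay above every library of the other 3 groups. Their interactions were -2.36 ± 0.50 (SE, adjusted p = 0.0191), -2.23 ± 0.52 (SE, adjusted p = 0.0311) and -2.03 ± 0.42 (SE, adjusted p = 0.0162). The tumor minus anemia difference in CD45- cells was 2.61 ± 0.35 (SE, adjusted p = 0.0121) for Rph3al, 1.71 ± 0.37 (SE, adjusted p = 0.0743) for Trp53bp1 and 1.33 ± 0.29 (SE, adjusted p = 0.0776) for Cecr2. Ntmt1, a methyltransferase of protein N termini, was at 5.56, 7.79 and 4.6 in tumor CD45+ libraries, 18.7, 16.9 and 7.91 in tumor CD45- libraries, 4.8, 5.52 and 5.85 in anemia CD45+ libraries and 1.9, 1.57 and 4.55 in anemia CD45- libraries. Ifngr2, a chain of the interferon gamma receptor, was at 14.6, 17.1 and 17.6 in tumor CD45+ libraries, 11.8, 12.1 and 2.99 in tumor CD45- libraries, 13.6, 12.8 and 19.9 in anemia CD45+ libraries and 0.475, 0.732 and 1.04 in anemia CD45- libraries. The CD45+ groups overlapped in both genes, whereas tumor CD45- libraries lay above anemia CD45- libraries. Their interactions were -1.98 ± 0.47 (SE, adjusted p = 0.0363) and -2.23 ± 0.51 (SE, adjusted p = 0.0294). Against this, the tumor minus anemia comparison of CD45- cells passed for 17 of 11195 genes (0.152%), and that of CD45+ cells for 1201 (10.7%).

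The remaining leading lower genes were mostly highest in anemia CD45+ cells. Chd3, a helicase of the NuRD complex, was at 7.54, 10.1 and 35.8 in tumor CD45+ libraries, 4.71, 6.07 and 4.5 in tumor CD45- libraries, 56.7, 69.3 and 43 in anemia CD45+ libraries and 3.68, 3.5 and 4.05 in anemia CD45- libraries. Anemia CD45+ libraries lay above all others, and tumor CD45+ replicate 3 was the closest to them. The interaction was -2.25 ± 0.56 (SE, adjusted p = 0.0468), and -2.89 (adjusted p = 0.000158) without that replicate. Relb and Nfkb2, partners in the alternative NF-kB pathway, passed lower at -2.02 ± 0.48 (SE, adjusted p = 0.0358) and -1.84 ± 0.47 (SE, adjusted p = 0.0495), the only 2 of 23 NF-kB factors, cytokines and chemokines tested that passed. Over all tested genes 0.393% passed lower. Of these 23, 5 passed lower without tumor CD45+ replicate 3, where 5.26% of all genes did. Without anemia CD45- replicate 3 the count was 3, without tumor CD45- replicate 3 it was 2, and without any 1 of the other 9 libraries 0. In the first 2 of these fits 37 and 36 of all tested genes passed lower. Relb was at 5.9, 7.12 and 12.5 in tumor CD45+ and 16.2, 18.3 and 24 in anemia CD45+ libraries, without overlap. Tsc22d3, a glucocorticoid-induced leucine zipper protein, was at 50.7, 33.8 and 39.9 in tumor CD45+ libraries, 13.8, 8.51 and 8.09 in tumor CD45- libraries, 61.5, 47.1 and 64.8 in anemia CD45+ libraries and 1.56, 3.13 and 2.65 in anemia CD45- libraries. Its CD45+ groups overlapped and its CD45- groups did not, with an interaction of -2.16 ± 0.51 (SE, adjusted p = 0.0321). H2-Q4, a class Ib MHC gene with close paralogs that can share reads, had -1.85 ± 0.41 (SE, adjusted p = 0.024), and Arl6ip5, a membrane protein of the endoplasmic reticulum, -1.88 ± 0.40 (SE, adjusted p = 0.0191). Over the 44 lower genes tumor CD45+ replicate 3 was the highest of its group in 36, a position likewise not counted over all tested genes.

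Many lower calls of named genes were lost with 1 library left out. Those of Cecr2 and Arl6ip5 were lost in 2 of 12 fits with a library left out, for Cecr2 without replicate 1 of tumor CD45+ or replicate 2 of anemia CD45-, and for Arl6ip5 without replicate 2 of tumor CD45- or of anemia CD45+. Those of Rph3al, H2-Q4, Ifngr2, Trp53bp1, Ntmt1, Tsc22d3, Relb and Chd3 were lost in 6, 7, 8, 8, 8, 9, 9 and 10 of 12. All 8 were kept without tumor CD45+ replicate 3, and all 8 were lost without replicate 1 of tumor CD45+, replicate 2 of tumor CD45- or replicate 1 or 2 of anemia CD45+. Without tumor CD45+ replicate 2 all but Rph3al were lost, without tumor CD45- replicate 1 all but H2-Q4, and without anemia CD45- replicate 1 all but Rph3al. Without anemia CD45- replicate 2 all but H2-Q4 and Trp53bp1 were lost, without anemia CD45+ replicate 3 Relb, without tumor CD45- replicate 3 H2-Q4 and Chd3, and without anemia CD45- replicate 3 Trp53bp1, Tsc22d3 and Chd3.

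**Figure D5:**
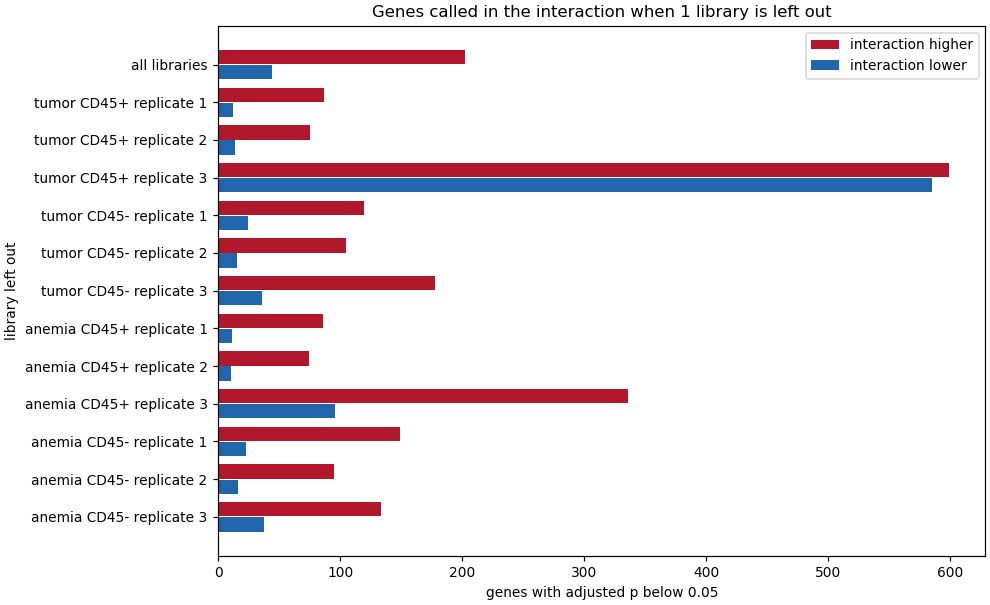
Number of genes with an adjusted p below 0.05 in the interaction, higher and lower, with all libraries and with each of the 12 libraries left out in turn. The count ran from 84 without anemia CD45+ replicate 2 to 1184 without tumor CD45+ replicate 3.

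Erythroid genes had no interaction that passed. None of 4 adult globin genes tested was called, nor any of 26 red cell membrane, 23 haem and iron, 22 late maturation and 19 erythroid transcription factor genes, with medians of -0.28, -0.42, -0.25, -0.41 and -0.22, and none was called without tumor CD45+ replicate 3. Hbb-bs, the main adult beta globin, was at 4041, 4538 and 3616 in tumor CD45+ libraries, 37759, 21956 and 14209 in tumor CD45- libraries, 7968, 5124 and 807 in anemia CD45+ libraries and 26529, 20987 and 8194 in anemia CD45- libraries. CD45- libraries lay above CD45+ libraries in each status without overlap. Its contrast was -2.49 ± 0.69 in tumor-bearing mice and -2.37 ± 0.69 in mice with anemia, and its interaction -0.12 ± 0.97 (SE, adjusted p = 0.981). Gata1, the master regulator of erythroid genes, had -0.70 ± 0.67 (SE, adjusted p = 0.707), Klf1, which activates adult globin, -0.07 ± 0.54 (SE, adjusted p = 0.981), Alas2, the first enzyme of erythroid haem synthesis, -0.25 ± 0.76 (SE, adjusted p = 0.935), and Tfrc -0.53 ± 0.66 (SE, adjusted p = 0.793). Standard errors of this size leave room for a difference of either sign. Anemia CD45+ replicate 3 was the lowest of its group in each of Hbb-bs, Gata1, Klf1 and Alas2, and without it the globin median was -1.46 and that of the membrane list -1.42, still with none called. Without anemia CD45+ replicate 1 these medians were 0.47 and 0.05, without anemia CD45- replicate 3 the globin median was 0.41, and with quantile normalization 2 of the 4 globin genes had a positive interaction.

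All 26 mitosis genes tested had a positive interaction, with a median of 0.87 and a range of 0.35 to 1.59, and none passed. Without tumor CD45+ replicate 3 the median was 1.23 and 5 passed higher, where 5.39% of all genes did. Without anemia CD45+ replicate 3 the median was 0.43, with 21 of 26 positive. Top2a, the topoisomerase that untangles replicated DNA, was at 127, 132 and 79.6 in tumor CD45+ libraries, 267, 272 and 333 in tumor CD45- libraries, 115, 114 and 47.8 in anemia CD45+ libraries and 426, 397 and 349.5 in anemia CD45- libraries. CD45- libraries lay above CD45+ libraries in each status without overlap. Its contrast was -1.38 ± 0.31 in tumor-bearing mice and -2.17 ± 0.31 in mice with anemia, and the interaction was 0.79 ± 0.44 (SE, adjusted p = 0.423). Of 24 DNA replication genes 22 were positive, with a median of 0.56 and none called, against 1 without tumor CD45+ replicate 3. None of 85 ribosomal protein genes passed, with a median of -0.15. Among further lists without a passed gene, 21 immediate early genes had a median of -0.62, 12 dendritic cell genes -0.88, 16 mast cell, basophil and eosinophil genes 0.54, 17 red pulp and Kupffer macrophage genes 0.81 and 18 antioxidant genes 0.31. The median of the red pulp list was 0.01 without tumor CD45+ replicate 3.

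In neonatal mice, outside the 4 groups of the interaction, the higher genes were mostly higher in CD45+ than in CD45- cells too. The neonatal libraries did enter the expression filter and the shared estimate of the spread. A fit to the 12 libraries only called 114 genes. The neonatal count is therefore not independent of how the 202 genes were called. In neonatal mice 188 of the 202 higher genes passed as higher in CD45+ than in CD45- cells, where 49.6% of all tested genes did. Of the 202, 119 had passed so in both tumor-bearing mice and mice with anemia, and 77 in tumor-bearing mice alone. The neonatal share among all genes higher in tumor CD45+ than tumor CD45- cells was not counted, so nothing is read from the 188. The median over the 202 genes of the group means was 9.59 in neonatal CD45+ and 0.499 in neonatal CD45- libraries. In MDSC it was 27.7, and the MDSC mean exceeded the tumor CD45+ mean for 180 of 202 genes. The share of all tested genes for which it did so was not counted, so nothing is read from the 180. Olfm4 was at 162, 106 and 156 in neonatal CD45+ libraries and 122, 112 and 145 in MDSC libraries, next to 92, 58.1 and 32.4 in tumor CD45+ libraries. Lipg was at 0.0162, 0.0892 and 0.22 in neonatal CD45+ libraries, within the range of anemia CD45+ libraries or below it, and at 56.1, 87.3 and 115 in MDSC libraries. Gzma, lower in the interaction, was at 55, 34.7 and 128 in neonatal CD45+ libraries and 0.234, 0.131 and 0.298 in MDSC libraries. Its neonatal CD45+ libraries were thus all above the anemia CD45+ libraries, and its MDSC libraries all below the tumor CD45+ libraries. In limma the tumor minus neonatal interaction, which shares the tumor libraries, was 4.23 ± 0.58 (SE, adjusted p = 0.000801) for Lipg, 0.48 ± 0.70 (SE, adjusted p = 1) for Ms4a3 and -3.62 ± 0.56 (SE, adjusted p = 0.00262) for Gzma, and the anemia minus neonatal interaction, which shares the anemia libraries, was 0.28 ± 0.58 (SE, adjusted p = 0.845) for Lipg, -4.23 ± 0.70 (SE, adjusted p = 0.00161) for Ms4a3 and -0.11 ± 0.56 (SE, adjusted p = 0.943) for Gzma. MDSC levels were not compared with a test.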

How the data were processed

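The authors deposited 1 table of log2 expression values per gene and library, with a blank cell where a gene had no value (23668 cells, 7.9%). Per the submitters' processing notes reads were handled with Bowtie 0.12.2 and the mm8 build. Per the labels, total RNA was made into libraries with a TruSeq RNA kit. The counting tool, the annotation and the exact expression scale are not given in the sources used here, so the depth is unknown and strand use is not stated.

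Values were taken out of the log, blanks set to 0, and log2(level + 1) fitted with limma 3.58.1 (R 4.3.3), with trend and robust variance, as 1 mean for each of the 6 Ter119+CD71+ groups over 18 libraries, which share 1 estimate of the spread. The MDSC libraries did not enter the fit. Genes with a level of at least 1 in at least 3 libraries were tested, 11195 of 14273. Tests were two-sided, with Benjamini-Hochberg adjustment over all tested genes, and a gene passed at an adjusted p below 0.05. No adjusted p over a list alone and no test of a list was made. The scripts were tested on simulated data with known changes, set only in genes of high level in tumor CD45+ cells. Of 100 interactions set at a size of 2 on the log2 scale, 56 were called with the right sign. Of 100 set at a size of 4, 89 were. Among 10916 unchanged genes 5 were called. A gene that did not pass can therefore still have an interaction. Symbols that occurred in 2 rows (8) were kept as separate entries, and 22 symbols turned into dates were kept as they stood.

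The 39 gene lists hold 686 symbols. The members and lists were chosen with earlier results of these data known, and gene lists were described by counts and medians beside all tested genes. Named were the first 12 genes by size of interaction in each direction that passed, had a mean of at least 10 in the highest of the 4 groups and no blank there, leaving out symbols that are clone or locus numbers and replication-dependent histones, then the sort antigens and up to 4 passed genes per list by adjusted p; members that did not pass are named with their values. Promoter windows are RefSeq's for GRCm38.p6, matched by symbol, and no coordinates were carried between builds. Alternatives covered pseudocount, filter, scaling, blanks, libraries in the fit, library weights, a replicate block and each library left out. Replicate numbers were taken as names and not as pairs.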

Additional observations from a re-analysis of the deposited data

Results flagged for a closer look

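The CD45 contrast differed between tumor-bearing mice and mice with anemia, by limma's test of the interaction itself, for 246 genes. Of the genes named by the rule, those with a larger contrast in tumor-bearing mice were Ms4a3 at 4.71, Ctsg at 4.38, Olfm4 at 4.38, Elane at 3.98, Prom1 at 3.96 and Abca13 at 3.96 on the log2 scale. Lipg at 3.95, Prtn3 at 3.90, Mpo at 3.79, Lbp at 3.78, Cd177 at 3.78 and Itgb2l at 3.76 followed. These sizes depend on the added 1. Mean levels of Ms4a3 were 127 and 0.943 in tumor CD45+ and CD45- cells, and 1.15 and 0.00498 in anemia. The ratio of these means was not larger in tumor-bearing mice. With a pseudocount of 0.1 the calls of Olfm4, Prom1, Abca13 and Lipg held, and those of the other leading higher genes were lost. Those with a smaller contrast, or one of opposite sign, in tumor-bearing mice were Tnfrsf13c at -3.90, Gzma at -3.51, Rph3al at -2.36, Chd3 at -2.25, Ifngr2 at -2.23 and Trp53bp1 at -2.23. Tsc22d3 at -2.16, Cecr2 at -2.03, Relb at -2.02, Ntmt1 at -1.98, Arl6ip5 at -1.88 and H2-Q4 at -1.85 followed.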

How the results depend on the processing

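The 246 genes with an interaction (202 higher, 44 lower) became 61 (53 and 8) with a pseudocount of 0.1 and 417 (281 and 136) with a pseudocount of 5. They became 324 (229 and 95) with no filter on low values and 115 (101 and 14) with a filter of 10. Median-ratio scaling gave 185 (143 and 42), quantile normalization 236 (166 and 70), and leaving out haemoglobin genes 240 (162 and 78) with a median of all genes at -0.12. A fit to the 12 libraries only gave 114 (95 and 19), and blanks as missing values 135 (117 and 18). Among the leading genes, the fit to 12 libraries ended the calls of Ctsg, Elane, Prtn3, Mpo, Rph3al, Chd3, Ifngr2, Relb, Ntmt1 and H2-Q4. Among the list members, it ended those of Mrgpra2a, Clec5a, Spi1, Prf1, Muc13, Lgals3, Nfkb2, Tpi1 and Gpi1. Library weights gave 3217 (1606 and 1611). With replicate 3 of all 6 groups left out the count was 1822 (1020 and 802), with replicate 3 of the 4 groups 1101 (688 and 413), with replicate 1 of the 4 groups 10 (9 and 1), and with replicate 2 of them 3 (3 and 0). With 1 library left out at a time the count ran from 84 to 1184, the higher genes from 74 to 599 and the lower genes from 10 to 585. Every gene of the 246 that was tested kept its sign in each of these settings. The cause of these differences was not tested.

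The replicate block, with the number taken as a batch term, gave 287 genes (223 higher and 64 lower), 228 of them among the 246. It ended the calls of Chd3, Clec5a, Gpi1 and Tpi1, at adjusted p values of 0.0541, 0.0637, 0.0569 and 0.0529. The labels do not say that a number marks a shared animal or batch. Deviations from the group means correlated at -0.0363 to 0.411 over 18 same-numbered pairs of libraries, 11 of them above 0.1, and 8 of 36 pairs with other numbers were above 0.1 too. The median was 0.117 over the same-numbered pairs and -0.106 over the pairs with other numbers, which ran from -0.368 to 0.254. A shared batch or pairing was thus not excluded. The same-numbered pairs of CD45+ and CD45- libraries of 1 status were all above 0.1, at 0.109 to 0.271, but tumor CD45+ replicate 1 correlated more with tumor CD45- replicate 2 (0.139) than with replicate 1 (0.11).

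For Ptprc, which passed in none of these settings, the interaction of -0.15 was 0.17 with library weights, 0.019 with replicate 3 left out of the 4 or of all 6 groups, and 0.12 with a pseudocount of 0.1, and ran from -0.60 to 0.18 with single libraries left out.

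The main limits are 3 libraries per group of unknown independence, counts of passed genes that change with single libraries, an unnamed expression scale without counts, and sorted fractions whose mixture of cell types was not measured. The count rose most without tumor CD45+ replicate 3, to 1184, and fell most without anemia CD45+ replicate 2, to 84. Depth is unknown, so low levels carry no counting interval.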
